A study of Mus musculus with 10 samples.

Results

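The genes described here are 10 transcripts usually made by the connective tissue and vessels of bone marrow, measured in RNA of hematopoietic progenitor cells. They are the collagen chain genes Col1a1, Col1a2, Col3a1, Col4a1 and Col5a1, the matrix protein gene Sparc, the niche factor genes Cxcl12 and Kitl, the growth factor binding protein gene Igfbp5 and the adhesion molecule gene Pecam1. They were taken by name, through their Ensembl identifiers, and all 10 were found among the 38887 genes of the deposited table. The marrow was that of mice bearing Lewis lung carcinoma, a transplantable mouse tumour. One group, called CK2i, was given 60 mg/kg of BMS-595, which inhibits the kinase CK2, over 2 weeks, and the other group was given vehicle over the same time. There were 5 libraries in each group, and both groups bore the tumour, so that no tumour-free mice stand beside them. The labels leave out the genotype, sex and age of the mice and the markers by which progenitors were isolated. They number the replicates of a group without saying that each came from its own mouse, so p-values measure only how far these samples differ, and some of that may be technical.

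Collagens are trimers of chains that wind into a triple helix, and cells secrete them into the matrix. Fibrillar collagens build bone matrix and reticular fibres, and type IV collagen builds the basement membrane under endothelium. In marrow, stromal cells that surround the vessels secrete the chemokine Cxcl12 and present stem cell factor, the product of Kitl, to progenitors that carry the receptors Cxcr4 and Kit.

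Total estimated counts ranged from 34127674 to 40811539 in CK2i libraries and from 37569160 to 43636152 in vehicle libraries. A first principal component over all tested genes set CK2i 2 and CK2i 5 far from the rest, at -43.3 and -43.7. CK2i 1, 3 and 4 had scores of -12.5 to 4.10, and vehicle libraries had scores of 9.37 to 29.6. The 10 genes together took 0.0157% to 0.0232% of a CK2i library and 0.0204% to 0.0294% of a vehicle library. Pecam1 made up a large part of this. The 10 genes had 5581 to 9155 counts in CK2i libraries, and 2449 to 5067 without Pecam1. In vehicle libraries they had 7654 to 11978 counts, and 3374 to 7133 without Pecam1. All 11 progenitor markers listed averaged above every one of the 10 genes except Pecam1. The lowest of these markers was Runx1 at 14.6 FPKM, while Cxcl12, the highest gene after Pecam1, averaged 9.20 FPKM. Some progenitor markers, among them Ptprc at 32.5 FPKM and Runx1, lay below Pecam1 at 37.6 FPKM. Mpo, the peroxidase of primary granules, averaged 1675 FPKM over the 10 libraries and Myb, a progenitor transcription factor, 163 FPKM. FPKM is the deposited value scaled to transcript length and to sequencing depth, which allows levels of different genes to be set side by side.

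Of the 10 genes, 2 fell in CK2i libraries and none rose. Col5a1 fell by 0.93 on the log2 scale and Pecam1 by 0.24. Igfbp5, Cxcl12, Col1a1, Col1a2 and Sparc had fitted log2 differences between -1.30 and -0.54 and did not pass the test, and Kitl, Col4a1 and Col3a1 lay between -0.20 and 0.09. The test was edgeR's quasi-likelihood test over 14346 genes with Benjamini-Hochberg adjustment, and genes passed at an adjusted p below 0.05. In this test 6.76% of all genes tested were lower and 6.43% were higher in CK2i, so 2 of 10 lower and 0 of 10 higher stand against those shares. At an unadjusted p under 0.05, 3 members were lower and 0 higher, where 16.6% of all genes tested were lower. DESeq2 called 3 members lower and 0 higher. It called 1460 of 22935 genes lower (6.37%) and 1708 higher. Those 22935 genes are a wider set that includes genes with too few counts for the edgeR test. The median log2 difference was -0.54 over the 10 genes and -0.0006 over all genes tested, and 8 of the 10 differences were below 0, where 50.2% of all genes tested were. All 5 CK2i libraries lay below all 5 vehicle libraries for 1 of the 10 genes, Col5a1, and for 5.76% of all genes tested. With 1 surrogate variable in the model, which called 0.509% of all genes in either direction, no member passed. The median over the 10 genes was then -0.17, with 7 differences below 0. It was -0.32 with CK2i 1, 3 and 4 only, and ran from -0.68 to -0.32 without single libraries. In these bulk libraries, fewer cells of a type and less RNA per cell cannot be told apart.

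**Figure D1:**
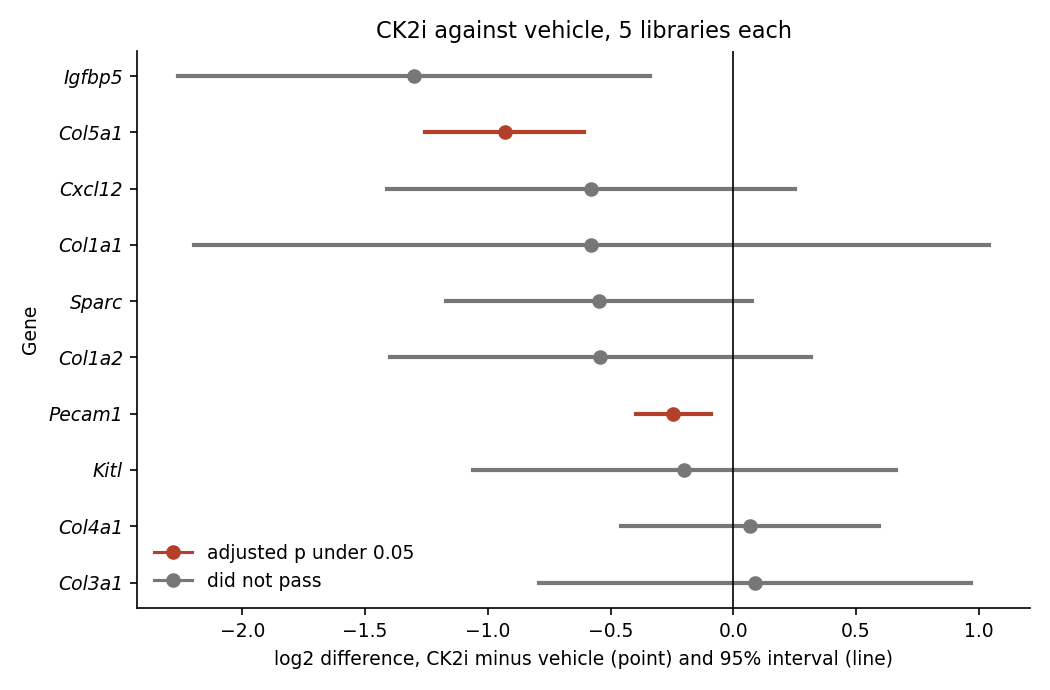
Log2 difference of each gene between CK2i and vehicle on the horizontal axis, with genes down the vertical axis. Points are edgeR estimates, lines are 95% intervals, and red marks an adjusted p under 0.05. Col5a1 and Pecam1 passed, Igfbp5 has the lowest estimate at -1.30 with an interval also below 0 that takes no account of the number of genes tested, and Col1a1 has the widest interval, from -2.20 to 1.04.

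The level of the genes spanned more than 2 orders of magnitude. Averaged over all 10 libraries, Pecam1 had 37.6 ± 4.66 FPKM (SD, n = 10), Cxcl12 9.20 ± 4.27, Col5a1 5.78 ± 2.06 and Col1a2 3.91 ± 1.87 FPKM. Col1a1 followed with 2.39 ± 1.88 FPKM, Igfbp5 with 1.80 ± 1.27, Sparc with 1.51 ± 0.518 and Col4a1 with 1.2 ± 0.351 FPKM. Kitl had 0.704 ± 0.416 and Col3a1 0.155 ± 0.0640 FPKM. Pecam1 was clear of the rest, since its lowest library at 30.7 FPKM lay above the highest of Cxcl12 at 16.3 FPKM. From Cxcl12 down to Kitl the ranges of neighbours over libraries overlapped, and the lowest Kitl value, 0.23 FPKM, was just above the highest Col3a1 value, 0.22 FPKM. Among all genes tested, these mean levels ranked between the 2.80th percentile for Col3a1 and the 79.4th for Pecam1.

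**Figure D2:**
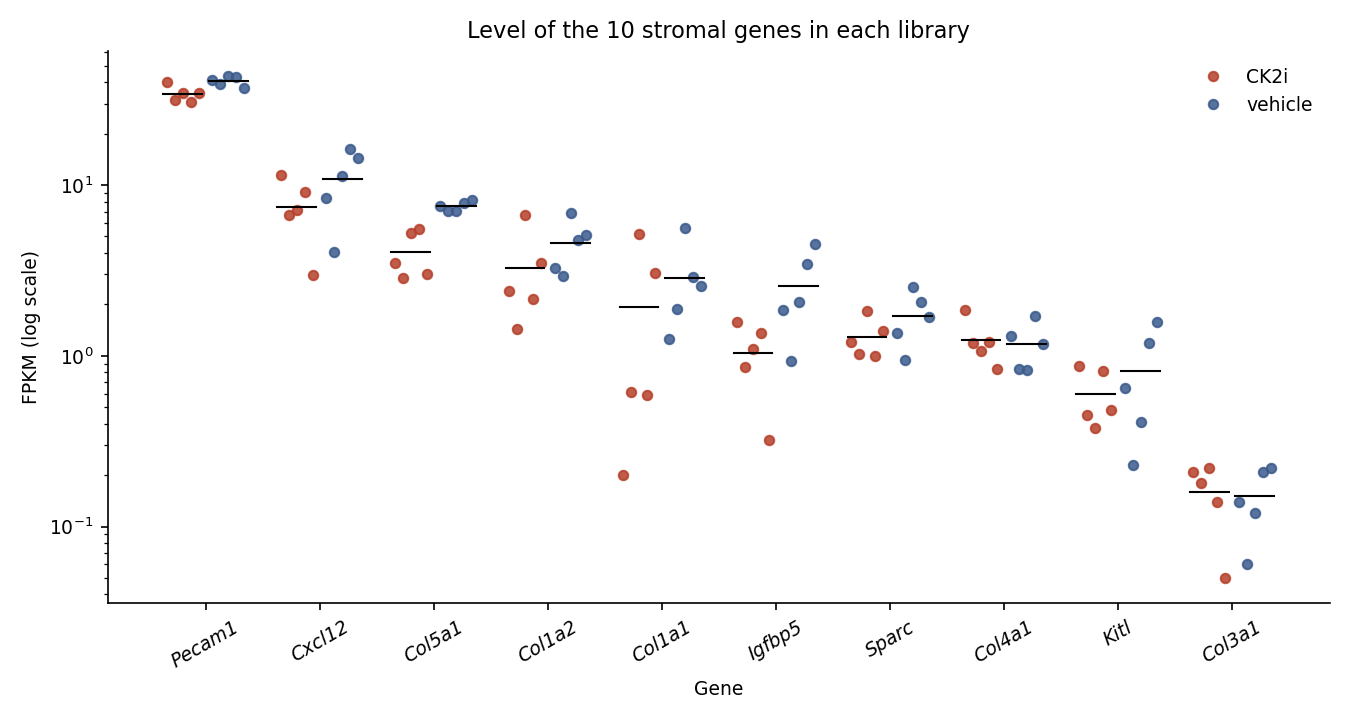
FPKM of each gene in each library on a log scale, with CK2i libraries in red to the left of vehicle libraries in blue and a black line at each group's mean. Genes run from the highest mean level to the lowest, and the points of a group are in replicate order. Col5a1 separates the groups with no overlap, while the points of Col1a1 in CK2i spread from 0.20 to 5.19 FPKM.

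All of the genes but Pecam1 also varied between libraries of the same group more than most genes do, in a comparison not matched for level. The biological coefficient of variation, edgeR's estimate of the relative spread between libraries of a group, had a median of 41.6% over the 10 genes and 10.5% over all genes tested. It was 78.7% for Col1a1, at the 99.6th percentile of the genes tested, and 47.3% for Igfbp5. It was lowest for Pecam1 at 8.51%, the 37.5th percentile, and it was 16.5% for Col5a1, the 69.7th percentile. The 2 genes that passed were therefore the pair with the least spread.

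Col1a1 and Col1a2 encode the chains of type I collagen, the main protein of bone matrix, in which a pair of α1 chains winds with an α2 chain. Col1a1 (ENSMUSG00000001506; mm10 chromosome 11, 94936224 to 94953042, plus strand) had 1.16, 3.11, 29.8, 3.38 and 17.7 CPM in CK2i 1 to 5, against 7.33, 10.9, 32.5, 16.6 and 14.8 CPM in vehicle 1 to 5. CPM is edgeR's count scaled to library size, with TMM normalization. CK2i 3 and vehicle 3 were highest, CK2i 1, 2 and 4 lay below all vehicle libraries, and the groups overlapped. The means were 11.0 ± 12.4 CPM in CK2i and 16.4 ± 9.68 CPM in vehicle (SD, n = 5 each), and the fitted log2 difference was -0.58 ± 0.74 (SE; edgeR adjusted p = 0.603). It ran from -1.39 without CK2i 3 to -0.17 without vehicle 3, and no fit without 1 library passed. Within CK2i the highest library had 25.7 times the level of the lowest.

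Col1a2 (ENSMUSG00000029661; chromosome 6, 4504814 to 4541544, plus strand) had 11.7, 6.98, 31.4, 9.59 and 17.2 CPM in CK2i libraries, against 14.9, 13.5, 34.3, 23.7 and 25.4 CPM in vehicle libraries. Again CK2i 3 and vehicle 3 were highest and CK2i 1, 2 and 4 lay below all vehicle libraries. The log2 difference was -0.54 ± 0.39 (edgeR adjusted p = 0.345). Without CK2i 3 it was -0.98 and passed (edgeR adjusted p = 0.0491), and without any other single library it did not pass. It was -0.34 without vehicle 3, -0.35 without CK2i 2 and -0.18 with 1 surrogate variable.

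The 2 chains of type I collagen did not keep a fixed ratio. The FPKM of Col1a1 divided by that of Col1a2 was 0.0833, 0.424, 0.772, 0.273 and 0.866 in CK2i 1 to 5, against 0.385, 0.645, 0.827, 0.605 and 0.506 in vehicle 1 to 5. Col1a1 was the lower of the pair in every library. In CK2i 1 it was more than 10 times lower, on 43 counts of Col1a1 and 434 of Col1a2. The groups overlapped, and the vehicle ratios lay within the range of the CK2i ratios.

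**Figure D3:**
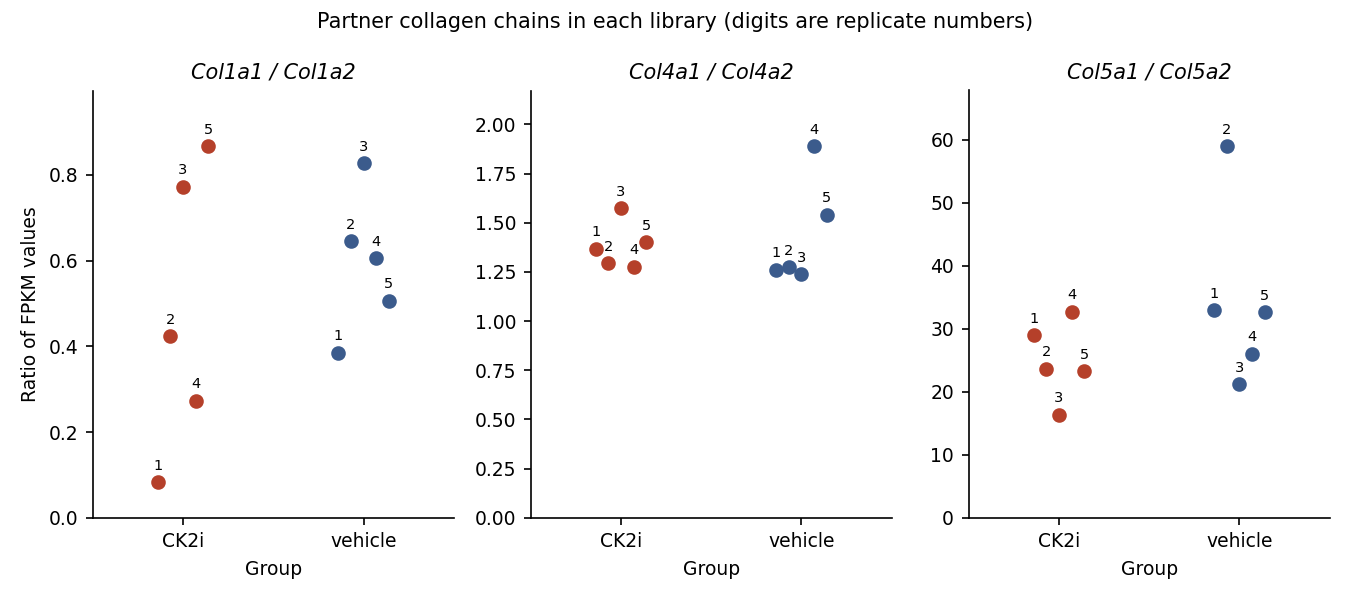
Ratio of FPKM values of partner collagen chains in each library, with CK2i left of vehicle in each panel and replicate numbers beside the points. The Col1a1 to Col1a2 ratio runs from 0.0833 to 0.866, the Col4a1 to Col4a2 ratio stays between 1.24 and 1.89, and the Col5a1 to Col5a2 ratio lies between 16.4 and 59.0.

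Genes with a profile over the libraries like that of Col1a1 were sought among tested genes that have a name and at least 0.1 FPKM on average. Likeness was the root-mean-square distance between log2 CPM profiles, each centred on its own mean over the 10 libraries. The closest was Bglap, the gene of the osteoblast protein osteocalcin, at a distance of 0.525 log2 units, followed by its near-identical neighbour Bglap2 at 0.553. Both rest on few reads, which the counting may split between them. Bglap had 0, 3, 27, 7 and 26 counts in CK2i libraries and 17, 11, 57, 16 and 42 counts in vehicle libraries. Bglap was highest in vehicle 3, as Col1a1 was, and next highest in vehicle 5, whereas Col1a1 was next highest in CK2i 3. Col1a2 ranked sixth at 0.940. The other ranks up to the eighth were held by the immunoglobulin segments Ighv1-54, Igkv9-120, Ighv1-75 and Igkv7-33 and by Cxcr1, at 0.838 to 0.975. The profile of Col1a1 itself has a root-mean-square size of 1.47 log2 units.

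Col3a1 encodes the chain of type III collagen, found in reticular fibres. Col3a1 (ENSMUSG00000026043; chromosome 1, 45311538 to 45349706, plus strand) had 1.10, 0.962, 1.21, 0.766 and 0.265 CPM in CK2i libraries, against 0.763, 0.319, 0.648, 1.12 and 1.21 CPM in vehicle libraries. The groups overlapped, CK2i 5 was lowest, and a library held between 9 and 48 counts of it. The log2 difference was 0.09 ± 0.40 (edgeR adjusted p = 0.896), with a 95% interval from -0.79 to 0.97.

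Col5a1 encodes the main chain of type V collagen, which joins type I fibrils and limits their width. Col5a1 (ENSMUSG00000026837; chromosome 2, 27886425 to 28039514, plus strand) had 24.1, 21.1, 27.8, 32.7 and 18.1 CPM in CK2i libraries, against 45.7, 40.1, 45.1, 49.1 and 56.2 CPM in vehicle libraries. Every CK2i library was below every vehicle library. The means were 24.8 ± 5.70 CPM in CK2i and 47.2 ± 5.94 CPM in vehicle (SD, n = 5 each). Col5a1 fell by 0.93 ± 0.15 on the log2 scale (SE, edgeR adjusted p = 0.00888), which is 0.524 times the vehicle level, with a 95% interval from -1.25 to -0.61.

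The fall of Col5a1 held in each of the 10 fits that left out 1 library, with log2 differences from -1.05 to -0.84 and edgeR adjusted p from 0.00502 to 0.0269. When CK2i 2 and 5 were both left out, Col5a1 was again the 1 member that passed (log2 -0.75, edgeR adjusted p = 0.0269), while 0.699% of all genes tested passed downward. It missed the threshold with 1 surrogate variable (log2 -0.67, edgeR adjusted p = 0.0833). Its usual partner chain did not pass: Col5a2 differed by -0.36 (edgeR adjusted p = 0.524). Col5a3, another type V chain gene, lay in the other direction at 0.70 and did not pass (edgeR adjusted p = 0.133, unadjusted p = 0.0432). Per length Col5a1 was 16.4 to 32.7 times as high as Col5a2 in CK2i libraries and 21.2 to 59.0 times as high in vehicle libraries. The annotation also places the transcripts Gm13372 and 2810430I11Rik on the opposite strand within Col5a1, at mean levels of 0.382 and 0.003 FPKM. Whether counting used the strand is not stated in the labels or notes.

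The promoter window of Col5a1 is shown because it belongs to the gene with the clearest difference. RefSeq gives it as chr2:27886175-27886474 of GRCm38.p6, plus strand, from 250 bases before to 50 bases after the start. Capitals mark matches of GGGCGG on either strand.
Col5a1: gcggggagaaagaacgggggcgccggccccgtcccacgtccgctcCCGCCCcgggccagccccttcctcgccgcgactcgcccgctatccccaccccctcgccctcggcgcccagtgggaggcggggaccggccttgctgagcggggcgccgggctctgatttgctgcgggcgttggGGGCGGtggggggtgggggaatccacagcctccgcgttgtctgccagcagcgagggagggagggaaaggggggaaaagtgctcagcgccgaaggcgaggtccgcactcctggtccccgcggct
The window is 75% G or C, against a median of 52.7% over 32851 mouse windows of the same length. It holds 2 matches of GGGCGG and none of TATAAA or CCAAT, searched on both strands, and no match overlapped one of another motif. Of all windows, 35.7% hold GGGCGG, 13.6% hold TATAAA and 37.4% hold CCAAT. Such matches describe the letters only.

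Col4a1 encodes a chain of type IV collagen, the network of basement membranes. Col4a1 (ENSMUSG00000031502; chromosome 8, 11198423 to 11312826, minus strand) had 11.9, 7.72, 6.88, 7.64 and 5.43 CPM in CK2i libraries, against 8.44, 5.40, 5.36, 11.0 and 7.54 CPM in vehicle libraries. CK2i 1 was highest, and the groups overlapped over nearly the whole range. The log2 difference was 0.07 ± 0.24 (edgeR adjusted p = 0.862), with a 95% interval from -0.46 to 0.59.

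Its partner chain gene Col4a2 lies head to head with it. Col4a2 had 6.94, 5.25, 4.26, 5.84 and 3.80 CPM in CK2i libraries, against 5.18, 4.13, 3.89, 5.64 and 4.43 CPM in vehicle libraries (log2 difference 0.17, edgeR adjusted p = 0.516). CK2i 1 was highest for both chains and CK2i 5 was the lowest CK2i library for both. The FPKM of Col4a1 divided by that of Col4a2 was 1.37, 1.29, 1.57, 1.28 and 1.40 in CK2i 1 to 5, against 1.26, 1.27, 1.24, 1.89 and 1.54 in vehicle 1 to 5. That ratio spanned a far narrower range than the one of the type I chains.

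The windows of the 2 type IV genes are shown because they share 78 bases, chr8:11312777-11312854. They lie on opposite strands, and each ends in the shared bases. Col4a1 is given on the minus strand (chr8:11312777-11313076) and Col4a2 on the plus strand (chr8:11312555-11312854), both from RefSeq on GRCm38.p6. Capitals mark the shared bases, which appear in the second sequence as the reverse complement of the first.
Col4a1: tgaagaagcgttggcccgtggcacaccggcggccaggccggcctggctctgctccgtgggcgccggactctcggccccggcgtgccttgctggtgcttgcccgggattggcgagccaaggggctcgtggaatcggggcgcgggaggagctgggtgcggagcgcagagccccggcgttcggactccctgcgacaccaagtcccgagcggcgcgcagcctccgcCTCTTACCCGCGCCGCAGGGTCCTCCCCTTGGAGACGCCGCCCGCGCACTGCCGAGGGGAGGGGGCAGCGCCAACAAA
Col4a2: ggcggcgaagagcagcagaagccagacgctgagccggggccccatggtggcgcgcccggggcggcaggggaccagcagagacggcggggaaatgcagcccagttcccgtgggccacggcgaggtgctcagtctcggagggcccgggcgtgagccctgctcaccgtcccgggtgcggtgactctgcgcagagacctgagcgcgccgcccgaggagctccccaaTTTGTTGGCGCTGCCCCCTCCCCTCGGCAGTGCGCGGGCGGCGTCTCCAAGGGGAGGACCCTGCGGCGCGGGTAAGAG
The annotated gene bodies overlap by 22 bases. The Col4a1 window holds 1 match of CCAAT and 1 of GGGCGG, the Col4a2 window 1 and 3, and neither holds TATAAA.

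Sparc encodes osteonectin, a secreted protein that binds collagen and calcium and is also made by megakaryocytes. Sparc (ENSMUSG00000018593; chromosome 11, 55394500 to 55423183, minus strand) had 2.37, 1.50, 3.43, 1.74 and 2.39 CPM in CK2i libraries, against 2.73, 1.73, 4.81, 3.93 and 3.48 CPM in vehicle libraries. CK2i 3 and vehicle 3 were the highest of their groups, as for type I collagen, and vehicle 1 and 2 lay within the CK2i range. The log2 difference was -0.55 ± 0.28 (edgeR adjusted p = 0.194). Among the 10 genes the closest pair of profiles was that of Sparc and Col1a2, at a distance of 0.304 log2 units.

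Cxcl12 encodes the chemokine that holds progenitors in the marrow. Cxcl12 (ENSMUSG00000061353; chromosome 6, 117168535 to 117181367, plus strand) had 30.4, 18.6, 19.1, 24.8 and 7.93 CPM in CK2i libraries, against 23.5, 11.4, 31.1, 44.4 and 40.3 CPM in vehicle libraries. CK2i 5 was lowest of all, vehicle 2 came next, and vehicle 3, 4 and 5 were above every CK2i library. The means were 20.2 ± 8.34 CPM in CK2i and 30.2 ± 13.3 CPM in vehicle, a log2 difference of -0.58 ± 0.38 (edgeR adjusted p = 0.295). Its RefSeq promoter window holds 5 matches of GGGCGG and none of TATAAA or CCAAT.

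Kitl encodes stem cell factor, the ligand of the receptor Kit. Kitl (ENSMUSG00000019966; chromosome 10, 100015630 to 100100416, plus strand) had 3.36, 2.00, 1.64, 3.33 and 1.36 CPM in CK2i libraries, against 2.17, 1.01, 1.87, 3.98 and 4.38 CPM in vehicle libraries. The groups overlapped, with vehicle 2 lowest and vehicle 4 and 5 highest. The log2 difference was -0.20 ± 0.39 (edgeR adjusted p = 0.745), with a 95% interval from -1.06 to 0.66.

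The window of Kitl is shown as the one among the niche factor genes with a TATAAA match. It is chr10:100015571-100015870 of GRCm38.p6, plus strand, from RefSeq, and capitals mark TATAAA and GGGCGG on either strand.
Kitl: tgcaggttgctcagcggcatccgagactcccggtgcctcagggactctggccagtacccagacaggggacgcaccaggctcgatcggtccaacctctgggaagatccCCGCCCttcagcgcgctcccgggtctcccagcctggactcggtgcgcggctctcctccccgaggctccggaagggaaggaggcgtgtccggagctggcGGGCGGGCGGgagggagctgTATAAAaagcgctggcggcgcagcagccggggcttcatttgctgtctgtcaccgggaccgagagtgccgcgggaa
The TATAAA match begins 25 bases before the RefSeq start, which lies inside the gene body as given above because the other annotation, GENCODE, begins the gene earlier. The window holds 3 matches of GGGCGG and none of CCAAT. Col3a1 is the other member whose window holds TATAAA. Windows were found for 8 of the 10 members, all but Col1a1 and Pecam1. Those of Sparc and Igfbp5 hold none of the 3 motifs.

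Igfbp5 encodes a secreted protein that binds insulin-like growth factors. Igfbp5 (ENSMUSG00000026185; chromosome 1, 72857932 to 72874884, minus strand) had 8.87, 5.03, 6.37, 7.87 and 1.89 CPM in CK2i libraries, against 11.0, 5.40, 12.1, 20.1 and 25.6 CPM in vehicle libraries. Vehicle 2 lay among the CK2i libraries and the other vehicle libraries lay above all of them. The means were 6.01 ± 2.73 CPM in CK2i and 14.8 ± 7.96 CPM in vehicle. The fitted log2 difference was -1.30 ± 0.44 (SE), which missed the threshold (edgeR adjusted p = 0.0673, unadjusted p = 0.0125). The adjusted p was 0.0390 without vehicle 2 and 0.0441 with DESeq2, and no other alternative passed.

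The profile of Cxcl12 lay 0.383 log2 units from that of Kitl, 0.410 from Igfbp5 and 0.433 from Col3a1, against 0.867 from Col1a2 and 1.69 from Col1a1, whose own profile is the largest. Kitl and Igfbp5 were farther from each other, at 0.682, and Col5a1 was nearer to each of them, at 0.667 from Kitl and 0.622 from Igfbp5. Cxcl12, Kitl, Igfbp5 and Col3a1 were all lowest among CK2i libraries in CK2i 5 and lowest among vehicle libraries in vehicle 2. The first 3 were highest in vehicle 4 and 5. Lepr, the leptin receptor that marks the stromal cells which make these factors, had 7.02, 4.34, 5.31, 7.48 and 2.42 CPM in CK2i libraries, against 5.67, 3.86, 6.35, 9.98 and 10.2 CPM in vehicle libraries. It was lowest and highest in the same libraries and did not pass (log2 -0.44, edgeR adjusted p = 0.357).

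**Figure D4:**
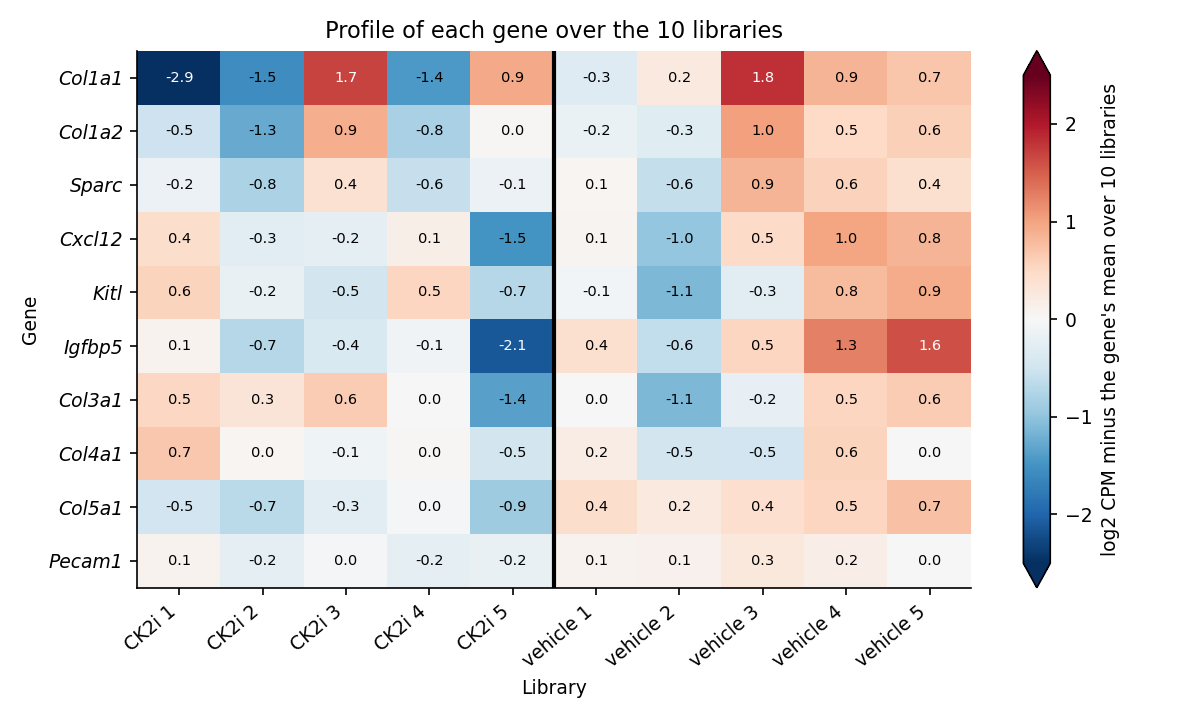
Log2 CPM of each gene minus its own mean over the 10 libraries, with CK2i libraries left of the black line and vehicle libraries right of it. Red is above and blue below the mean of the gene, and the scale ends at 2.5 either way. Col1a1, Col1a2 and Sparc are above their means in CK2i 3 and vehicle 3, while Cxcl12, Kitl, Igfbp5 and Col3a1 are low in CK2i 5 and vehicle 2.

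Pecam1 encodes CD31, an adhesion molecule of endothelial cells that platelets, monocytes and progenitors also carry. Pecam1 (ENSMUSG00000020717; chromosome 11, 106654217 to 106750628, minus strand) had 112, 90.6, 103, 89.3 and 92.4 CPM in CK2i libraries, against 112, 114, 126, 118 and 106 CPM in vehicle libraries. CK2i 1 lay within the vehicle range, and the other 4 CK2i libraries lay below all vehicle libraries. The means were 97.4 ± 9.63 CPM in CK2i and 115 ± 7.51 CPM in vehicle (SD, n = 5 each). Pecam1 fell by 0.24 ± 0.07 on the log2 scale (SE, edgeR adjusted p = 0.0429), to 0.844 times the vehicle level. It kept its call without CK2i 1 or without CK2i 3. Without CK2i 2, 4 or 5 or any 1 of the vehicle libraries the edgeR adjusted p was 0.0589 to 0.0988, and with CK2i 1, 3 and 4 only it was 0.218.

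Markers of other cell types stand beside these values. Of all genes tested, 6.76% were lower and 6.43% higher, and 16.6% were lower at an unadjusted p under 0.05. The share that was higher at that unadjusted p was not counted. DESeq2 called 1460 of 22935 genes lower and 1708 higher. Counts in each list below stand against these shares. Of 12 megakaryocyte and platelet markers, 5 fell and none rose, and at an unadjusted p under 0.05 all 12 were lower. DESeq2 called 9 lower and 0 higher. Their summed level was 1913 to 4045 CPM in CK2i libraries and 3241 to 5116 CPM in vehicle libraries, and their most abundant genes, Pf4 and Ppbp, averaged 1149 and 627 FPKM. Tubb1, Treml1, Ppbp and Gp9 were among those that fell, and each of these passed in 2 or 3 of the 10 fits that left out 1 library. Tubb1, the platelet tubulin, was 141 ± 55.6 CPM in CK2i and 260 ± 31.1 CPM in vehicle (log2 -0.88, edgeR adjusted p = 0.0347). The part of platelet RNA in the differences of Pecam1, Sparc and Col5a1 was not tested.

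Of 13 endothelial markers 12 were tested, and 2 fell, where 6.76% of all genes tested did. At an unadjusted p under 0.05, 6 were lower and 1 was higher, and DESeq2 called 5 lower and 0 higher. Plvap, a protein of vessel wall openings, had 6.18, 5.77, 7.35, 6.71 and 4.28 CPM in CK2i libraries, against 11.7, 9.16, 9.32, 11.0 and 12.6 CPM in vehicle libraries. It fell by 0.83 ± 0.14 on the log2 scale (edgeR adjusted p = 0.0127), in all 10 fits without 1 library. Stab2, a scavenger receptor of sinusoids, fell by 0.85 ± 0.23 (edgeR adjusted p = 0.0398), in 2 of the 10 fits. Its mean FPKM differed less, at 0.818 in CK2i and 0.946 in vehicle, and the groups overlapped. Over the 11 other alternatives the log2 difference of Stab2 ran from -0.86 to -0.08, and 5 passed. The summed level of the list was 501 to 940 CPM in CK2i libraries and 747 to 1130 CPM in vehicle libraries. Vwf, the clotting factor also made by megakaryocytes, took most of it, and without Vwf the sums were 82.4 to 124 CPM and 106 to 142 CPM. The list's genes were uneven in level. Egfl7, a secreted vessel protein, averaged 33.4 FPKM, and the receptor genes Tie1, Kdr and Tek averaged 8.88, 3.30 and 2.53 FPKM. The cadherin gene Cdh5 and the tight junction gene Cldn5 averaged 0.144 and 0.149 FPKM, with 8 to 39 and 2 to 16 counts per library.

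Stromal and bone markers were low. Of 13 mesenchymal stromal markers 8 were tested and none passed, with 0 at an unadjusted p under 0.05, while DESeq2 called 1 lower. Twist1 and Twist2 had at most 1 count in a library. The summed level was 21.3 to 33.6 CPM in CK2i libraries and 22.2 to 39.1 CPM in vehicle libraries. Pdgfrb, a growth factor receptor, took most of it, and without it the sums were 4.31 to 12.5 CPM and 6.12 to 18.9 CPM. Of 9 osteoblast markers 8 were tested and none passed by edgeR, with 1 higher and 1 lower at an unadjusted p under 0.05, and DESeq2 called 1 higher. Their sum, 21.6 to 37.2 CPM in CK2i and 19.3 to 26.2 CPM in vehicle, was mostly Runx2, and without it the sums were 3.38 to 5.49 CPM and 3.43 to 10.2 CPM. Of 7 pericyte and smooth muscle markers, 1 had enough counts to be tested, Notch3, and it did not pass. Their sum was 0.678 to 2.45 CPM in CK2i libraries and 1.09 to 2.73 CPM in vehicle libraries. The share of stromal, bone or vessel cells in each library was not measured, and its part in the differences was not tested.

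**Figure D5:**
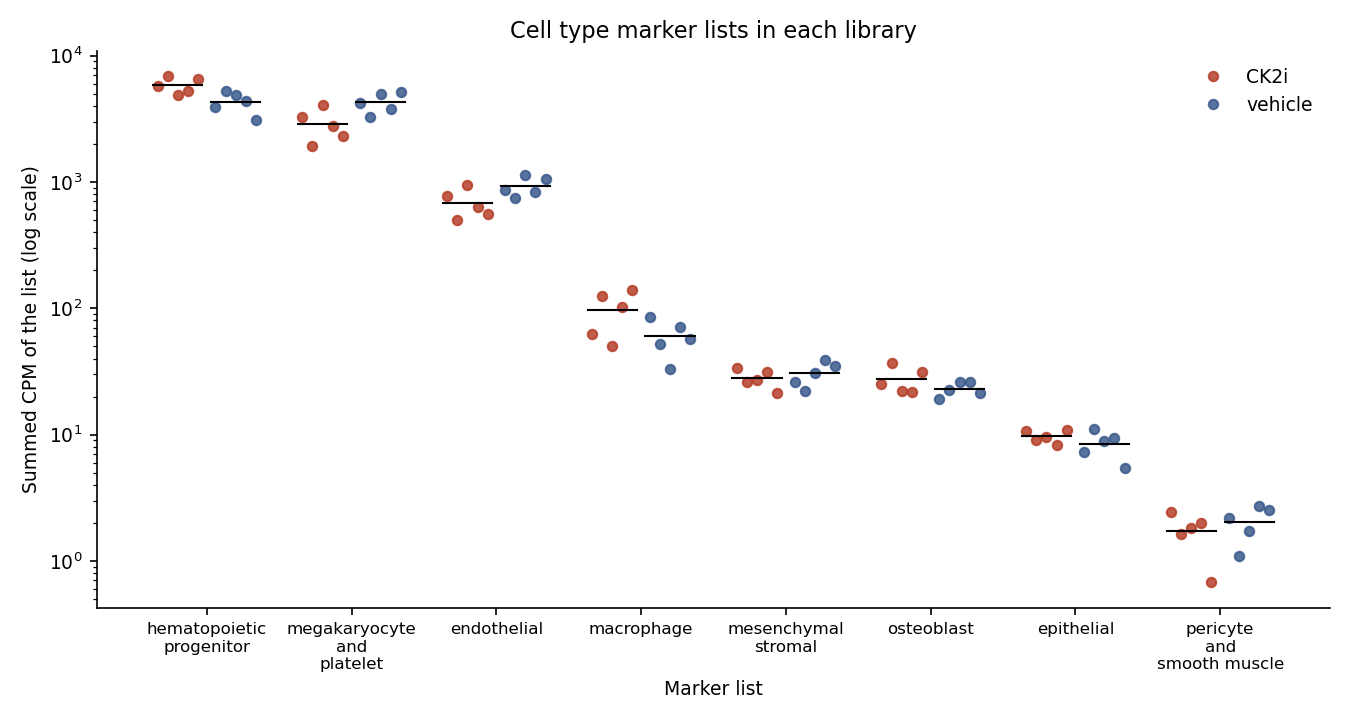
Summed CPM of each cell type marker list per library on a log scale, with CK2i in red to the left of vehicle in blue and a black line at each group's mean. Progenitor markers sum to 4837 to 6881 CPM in CK2i libraries and 3110 to 5212 CPM in vehicle libraries. Without Mpo, their most abundant gene, the sums are 1395 to 1555 CPM and 1300 to 1579 CPM, and the groups overlap. No library of the mesenchymal stromal, osteoblast, epithelial or pericyte lists is above 39.1 CPM.

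Of the remaining lists, 9 macrophage markers had 1 higher, Adgre1, the F4/80 antigen (log2 0.85 ± 0.24, edgeR adjusted p = 0.0436). Their sums were 50.3 to 140 CPM in CK2i libraries and 33.3 to 84.6 CPM in vehicle libraries. Vcam1 took the largest part, and without it the sums were 29.1 to 70.6 CPM and 19.1 to 50.6 CPM. Of 4 epithelial markers 3 were tested and none passed, with 0 at an unadjusted p under 0.05 and 0 by DESeq2, and Krt19 had no counts. Of 11 progenitor markers 2 rose and 1 fell, where 6.43% and 6.76% of all genes tested did. Mpo was 4379 ± 814 CPM in CK2i and 2837 ± 713 CPM in vehicle (edgeR adjusted p = 0.0451), a call kept in 2 of the 10 fits. The gene of the transcription factor PU.1, Spi1, was also higher, with a log2 difference of 0.52 ± 0.15 (edgeR adjusted p = 0.0428), kept in 3 fits. Adgre1 kept its call in 3 fits. The gene that fell, Kit, is described with the niche receptors.

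Among the other collagen chain genes no call was made. Of 14 listed, 13 were tested and none passed by edgeR, with 1 higher and 0 lower at an unadjusted p under 0.05 and 0 by DESeq2. Their median log2 difference was -0.36, where that of all genes tested was -0.0006. The highest per length were Col11a2, Col18a1 and Col16a1 at 2.13, 1.11 and 1.06 FPKM on average, each below the mean of Col1a1.

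Among 18 tested genes of other matrix proteins 1 fell and 1 rose, beside 6.76% and 6.43% of all genes tested. Thbs1, thrombospondin 1, a matrix protein abundant in platelets, had 1107, 612, 1000, 750 and 564 CPM in CK2i libraries, against 1651, 1234, 1529, 1094 and 1531 CPM in vehicle libraries. It fell by 0.80 ± 0.19 on the log2 scale (edgeR adjusted p = 0.0269), in 5 of the 10 fits without 1 library. At 198 FPKM on average it was the highest of the list, ahead of Emilin1 at 63.1 FPKM. Vcan, the proteoglycan versican, had 0.807, 2.10, 0.831, 0.925 and 2.12 CPM in CK2i libraries, against 0.393, 0.532, 0.424, 0.659 and 0.489 CPM in vehicle libraries. All CK2i libraries were above all vehicle libraries, with CK2i 2 and 5 highest. Vcan rose by 1.43 ± 0.34 on the log2 scale (edgeR adjusted p = 0.0262), in 5 of the 10 fits.

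Genes that fold, modify and process collagen ranged from 0.077 to 337 FPKM on average. Of 18, 2 rose and none fell, where 6.43% of all genes tested rose and 6.76% fell. DESeq2 called 3 higher and 1 lower, where it called 1708 and 1460 of 22935 genes. P4hb, protein disulfide isomerase and a subunit of the prolyl hydroxylase, was at 962 CPM in CK2i and 819 CPM in vehicle on average. It rose by 0.23 ± 0.05 on the log2 scale (edgeR adjusted p = 0.0263), in 4 of the 10 fits without 1 library. Plod1, a lysyl hydroxylase, rose by 0.43 ± 0.08 (edgeR adjusted p = 0.0167), in all 10 fits. P4hb and the prolyl isomerase gene Ppib averaged 337 and 331 FPKM, and the collagen galactosyltransferase gene Colgalt1 averaged 43.2 FPKM. Serpinh1, the gene of a chaperone specific to collagen, averaged 1.04 FPKM, below Col1a1, Col1a2 and Col5a1.

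Of 10 tested genes of matrix remodelling 1 rose and 1 fell, beside 6.43% and 6.76% of all genes tested. Mmp8, the neutrophil collagenase, rose by 0.97 ± 0.29 on the log2 scale (edgeR adjusted p = 0.0493), in 2 of the 10 fits without 1 library. Timp2, an inhibitor of metalloproteinases, had 2.61, 3.97, 2.59, 3.83 and 3.33 CPM in CK2i libraries, against 4.88, 4.13, 5.76, 4.66 and 4.38 CPM in vehicle libraries. The groups did not overlap, and Timp2 fell by 0.54 ± 0.15 (edgeR adjusted p = 0.0416), in 3 of the 10 fits. The highest of the list were Adam10, Timp3 and Adam17, at 52.8, 51.5 and 24.9 FPKM on average.

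The receptors of both niche ligands passed in opposite directions. Cxcr4, the receptor of Cxcl12, had 113, 130, 118, 125 and 151 CPM in CK2i libraries, against 90.7, 109, 109, 103 and 83.2 CPM in vehicle libraries. Every CK2i library was above every vehicle library, and Cxcr4 rose by 0.36 ± 0.09 on the log2 scale (edgeR adjusted p = 0.0347), in 5 of the 10 fits without 1 library. Kit, the receptor of stem cell factor, had 224, 253, 205, 233 and 210 CPM in CK2i libraries, against 281, 262, 275, 282 and 244 CPM in vehicle libraries. CK2i 2 lay within the vehicle range, and Kit fell by 0.26 ± 0.06 (edgeR adjusted p = 0.0302), in 6 of the 10 fits. Whether these differences differ from those of Cxcl12 and Kitl, which did not pass, was not tested.

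Of the 9 other niche factors and receptors that were tested, these 2 and Jag1 passed. Of all genes tested, 6.43% rose and 6.76% fell. Jag1, a Notch ligand, had 1.51, 2.10, 1.39, 1.35 and 1.74 CPM in CK2i libraries, against 0.602, 0.612, 0.523, 0.610 and 0.747 CPM in vehicle libraries. The groups were far apart, and Jag1 rose by 1.38 ± 0.17 on the log2 scale (edgeR adjusted p = 0.00392), in all 10 fits. In the insulin-like growth factor system 6 genes were tested, of which 1 rose and 1 fell, beside the same shares. Igfbp4, another binding protein and at 104 FPKM on average the highest of the list, rose by 0.46 ± 0.12 (edgeR adjusted p = 0.0356), in 4 of the 10 fits. Igf2r, the receptor that carries insulin-like growth factor 2 to lysosomes, fell by 0.40 ± 0.08 (edgeR adjusted p = 0.0187), in all 10 fits.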

How the data were processed

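RNA of marrow progenitors was sequenced as paired reads from stranded total RNA libraries, per the labels' protocols. The deposited table holds estimated counts and FPKM values per gene. Bowtie2, RSEM 1.2.31, DESeq2 and the build mm10 are named, per the submitters' processing notes, while annotation, strand setting and filters are not stated there. As deposited, every estimated count is a whole number. The deposited FPKM values are scaled by transcript length and depth.

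The table lists 38887 genes, 37570 matched to GENCODE M21 symbols (GRCm38, also named mm10), and 2 empty lines were left out. Flt3l was not analysed here. The test was edgeR 4.0.16 (R 4.3.3), quasi-likelihood, with TMM scaling, filterByExpr with a minimum count of 10 and group as the only term, two-sided. It covered 14346 genes, all 10 members among them. Standard errors are the log2 fold change over the square root of the F statistic. Libraries held 34127674 to 43636152 counts, which leaves counting error largest in the lowest genes. The script was tested on simulated data.

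The members and gene lists were chosen with earlier results of these data known. Named are the members, called genes of each list (at most 5 each way), the highest genes of each list by FPKM, and the 8 closest to Col1a1. Col4a2, Col5a2, Col5a3, Cdh5, Cldn5, Tie1, Kdr, Tek, Serpinh1, Ptprc, Runx1, Twist1 and Twist2 were named after their values were seen. Alternatives were limma 3.58.1 on log2(FPKM + 1) and log2(FPKM + 0.1), DESeq2 1.42.0, other scalings and filters, a replicate block, 1 surrogate variable (sva 3.50.0) and fits without libraries. Library pairs of a group differed by more than sampling noise, with a chi-square per degree of freedom from 10.3 to 67.8.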

Additional observations from a re-analysis of the deposited data

How the results depend on the processing

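Of all genes tested, 1892 passed; the count was 3168 with DESeq2, 1193 and 866 by limma on log2(FPKM + 1) and log2(FPKM + 0.1), 73 with 1 surrogate variable, whose correlation with the group was 0.635, and 175 with CK2i 1, 3 and 4 only. It ran from 446 without CK2i 5 to 3198 without CK2i 3, and was 617 without CK2i 2 and 458, 758, 528 and 546 without vehicle 1, 3, 4 and 5. Of the 10 members, 2 passed; the count was 1 (Col5a1) without a filter, with either limma setting, with CK2i 1, 3 and 4 only and without both libraries numbered 3, a setting chosen after seeing the data, and it was 0 with 1 surrogate variable. Without single libraries it ran from 1 to 3. The cause was not tested.

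Whether replicate numbers pair the libraries was not settled. Same-numbered libraries had deviations correlated from -0.159 to 0.228, and 2 of 5 CK2i libraries correlated best with their own number. With the number as a block 1139 genes and 1 member passed.

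Differences near 0 changed sign. Col3a1 was -0.14 without both libraries numbered 3 and -0.11 to 0.31 without single libraries, and Col4a1 was -0.13 to 0.24. Kitl was 0.22 with 1 surrogate variable, 0.044 with CK2i 1, 3 and 4 only and -0.41 to 0.046 without single libraries. Col3a1 was not tested at a minimum count of 50. No member's CPM in either group of 5 held a library that Dixon's test set apart. The 9 to 48 counts of Col3a1 and the few of Bglap limit what can be seen of them.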
